A study of Mus musculus with 22 samples.

Results

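Microglia, the resident macrophages of the retina, keep a characteristic set of genes switched on while the tissue is at rest. The 7 genes followed here, P2ry12, Tmem119, Cx3cr1, Siglech, Csf1r, Gpr34 and Sall1, are widely used members of that homeostatic set. They were taken as a fixed list, and all 7 were found among the 53801 genes of both bulk count tables and among the 19324 genes of the single-cell matrix. The question put to them was whether, in mice without AdipoR1, they rose in step with the amount of microglial RNA or lagged behind it.

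Homeostatic microglia sense their surroundings through receptors, several of them encoded by these genes. They depend on signals from neighbouring cells to survive and to hold their identity. CSF1 and IL-34 act through Csf1r to keep the cells alive, neurons signal through the fractalkine ligand of Cx3cr1, and TGF-beta helps to maintain the whole set together with the transcription factor Sall1. When retinal neurons degenerate, microglia multiply and move toward the damage, and homeostatic genes are commonly expressed at a lower level per cell while phagocytic and lysosomal genes are expressed at a higher one.

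The mice were of the C57BL/6J strain by their labels, WT or AdipoR1-/- (KO), the knockout being a constitutive allele carried in every cell, and animals of both sexes were used in the study. By the study's methods the knockout line began as a targeted Deltagen allele and was bred onto C57BL/6J and onto an albino Tyr background, and homozygotes came from crosses of heterozygotes. The bulk libraries came from retina and from RPE, the pigmented epithelium that underlies the photoreceptors, at P30, and each tissue had 4 WT and 4 KO libraries. The RPE was shaken off the opened eyecup after the retina had been lifted away. The study's text gives 4 mice per group for the bulk data, which the labels do not tie to single libraries. The single-cell libraries, prepared from 4 retinae each, covered P19, P25 and P30, and each age had 1 WT and 1 KO library. The P30 pair was sequenced in another batch and on another instrument than the P19 and P25 libraries, so age and batch cannot be told apart at P30, and genotypes were set side by side only within an age.

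Total counts per bulk library ranged from 22734843 to 35118164 in retina and from 20133143 to 38409496 in RPE. The targeted gene went with the labels. Adipor1 stood at 589 to 607 CPM (counts per 1000000 counts of the library) in WT retina and at 136 to 142 CPM in KO retina, and at 374 to 479 CPM in WT RPE and 139 to 152 CPM in KO RPE. The RPE libraries were less even than the retina libraries. Summed over 8 rod genes, WT RPE libraries 2 and 3 held the most, up to 15020 CPM, while the lowest WT RPE library held 950.3 CPM. Summed over 9 genes of border macrophages, the macrophages of the choroid, vessels and meninges, WT RPE library 1 held 752.6 CPM, inside the KO range of 458.0 to 825.3 CPM, and the lowest WT library held 119.1 CPM.

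All 7 genes were higher in KO retina than in WT retina. A gene was called where edgeR's quasi-likelihood test gave a Benjamini-Hochberg adjusted p below 0.05 over all genes tested and the fold change was at least 1.5. By this rule 7 of 7 members rose, against 7.0% of the 19381 genes tested, and each member's lowest KO library lay above its highest WT library, as was the case for 16.1% of all genes tested. Their fold changes ran from 1.59 to 3.18 with a median log2 fold change of 1.01, where the median over all genes was 0.00359. In bulk RNA, more cells of a type and more RNA per cell cannot be told apart.

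Among the receptors, Cx3cr1, the receptor of the neuronal chemokine fractalkine, rose the most. Its 4 WT retina libraries held 4.59, 4.55, 4.33 and 4.26 CPM and its KO libraries 13.3, 13.2, 16.6 and 13.3 CPM. The WT libraries were nearly alike and KO library 3 stood above the rest. The log2 fold change was 1.67 with an SE of 0.09 (edgeR adjusted p = 2.46e-08).

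Csf1r, the receptor for CSF1 and IL-34 on which microglia depend for survival, was the most abundant member. It held 12.6, 12.7, 13 and 12.0 CPM in WT retina and 33.1, 34.8, 40.5 and 35.1 CPM in KO retina. No KO library came near the WT level, and the log2 fold change was 1.51 with an SE of 0.07 (edgeR adjusted p = 3.61e-09). Csf1r has 5774 exon bases, of which 873 lie opposite exons of Hmgxb3. No source used here states whether strand was used in counting, so reads of the shared bases cannot be told apart, but Hmgxb3, looked up for this reason, did not pass the test in retina, with a log2 fold change of 0.04.

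P2ry12, the ADP receptor with which microglial processes find sites of injury, rose 1.97-fold. WT retina libraries held 2.38, 2.36, 2.11 and 2.92 CPM and KO libraries 4.42, 5.18, 5.08 and 4.63 CPM, which gave a log2 fold change of 0.98 with an SE of 0.12 (edgeR adjusted p = 4.46e-05). Gpr34, a receptor for lysophosphatidylserine, was the scarcest member by CPM and changed the least. It held 1.05, 0.564, 0.678 and 1.09 CPM in WT retina and 1.59, 1.2, 1.49 and 1.09 CPM in KO retina, so that the highest WT and the lowest KO library both stood at 1.09 CPM. Its log2 fold change of 0.67 with an SE of 0.23 only just passed (edgeR adjusted p = 0.0453), and the call was lost under 7 alternatives, among them DESeq2 (adjusted p = 0.07) and leaving out WT retina library 2 (adjusted p = 0.105).

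Of the other surface proteins, Tmem119, a membrane protein used to tell microglia from other macrophages, held 2.07, 1.59, 2.68 and 1.69 CPM in WT retina and 5.28, 4.91, 6.19 and 6.01 CPM in KO retina. The log2 fold change was 1.48 with an SE of 0.16 (edgeR adjusted p = 9.65e-06). Siglech, a sialic acid-binding lectin that signals through the adaptor encoded by Tyrobp, held 1.97, 1.73, 1.70 and 1.69 CPM in WT and 4.01, 3.57, 3.35 and 3.32 CPM in KO retina. In each genotype its library 1 was the highest, and the log2 fold change was 1.01 with an SE of 0.13 (edgeR adjusted p = 3.98e-05).

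Sall1, the transcription factor that holds microglial identity, held 1.19, 1.30, 1.88 and 1.80 CPM in WT retina and 3.21, 2.73, 3.42 and 2.69 CPM in KO retina. The groups were well apart and the log2 fold change was 0.97 with an SE of 0.17 (edgeR adjusted p = 7.36e-04). The call was lost only when all 16 bulk libraries shared a single estimate of spread (adjusted p = 0.077). In retina the members thus ran from Cx3cr1, Csf1r and Tmem119, at 3.18-fold, 2.85-fold and 2.79-fold, to Siglech, P2ry12, Sall1 and Gpr34, at 2.01-fold, 1.97-fold, 1.96-fold and 1.59-fold.

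**Figure D1:**
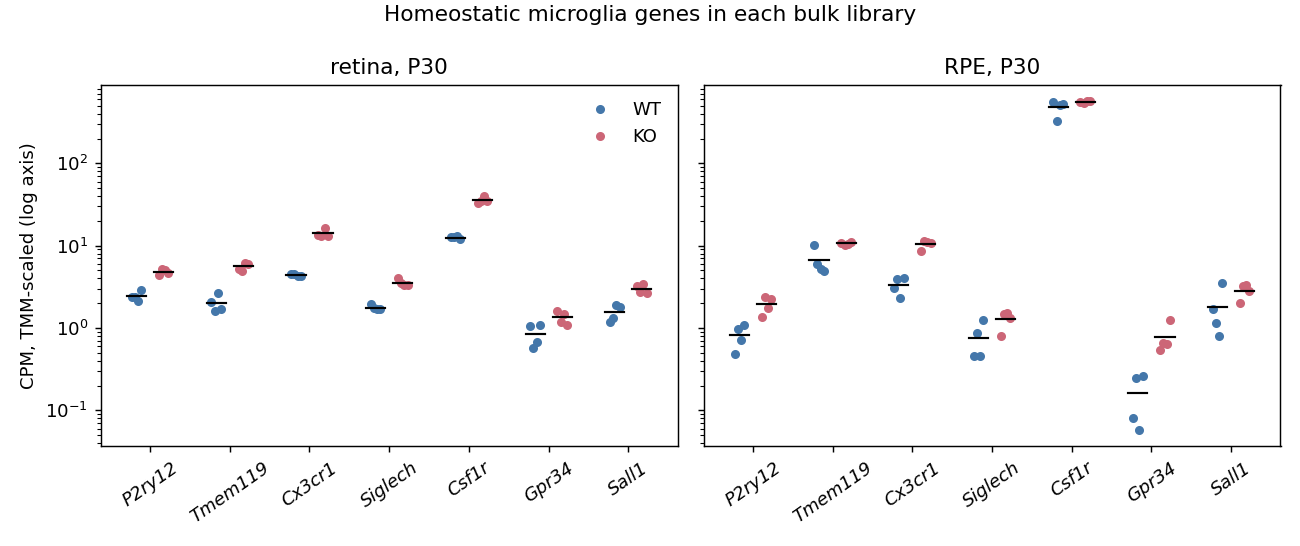
Each point is 1 bulk library at P30 (4 WT and 4 KO per tissue), the vertical axis gives TMM-scaled CPM on a log scale, and black bars are group means. In retina every KO point lies above every WT point of the same gene, while in RPE the groups overlap for Tmem119, Siglech, Csf1r and Sall1.

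Levels can be compared between genes only per length, here as CPM per kilobase of annotated exon. In WT retina Csf1r led at 2.18 ± 0.07 (SD, n = 4). Cx3cr1 at 0.984 ± 0.0356, P2ry12 at 0.960 ± 0.135 and Tmem119 at 0.867 ± 0.213 followed with overlapping libraries, then Siglech at 0.524 ± 0.0399, Gpr34 at 0.405 ± 0.127 and Sall1 at 0.293 ± 0.066, and neighbours among these again overlapped. In KO retina the order was Csf1r at 6.21 ± 0.56, Cx3cr1 at 3.13 ± 0.372, Tmem119 at 2.42 ± 0.262, P2ry12 at 1.90 ± 0.142, Siglech at 1.05 ± 0.0941, Gpr34 at 0.643 ± 0.113 and Sall1 at 0.572 ± 0.0685. Tmem119, which had been level with P2ry12 in WT, lay above it in every KO library.

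The same RNA held many other myeloid transcripts, and they rose further. A list of 20 genes shared by all myeloid cells, none of them a member, was chosen with earlier results of these data known. The list rose in 20 of 20 cases, by 0.91 to 2.45 on the log2 scale around a median of 1.93. Its genes with the smallest p were Laptm5, a lysosomal protein of blood-derived cells (log2 fold change 1.92), Tyrobp, the adaptor DAP12 (2.36), and Irf8, a transcription factor of the myeloid lineage (1.91). Of these 20 genes, 7 rose by less than Cx3cr1, 3 by less than Csf1r, 2 by less than Tmem119, 1 by less than each of Siglech, P2ry12 and Sall1, and 0 by less than Gpr34. Aif1, which encodes the IBA1 protein used to stain microglia, had a log2 fold change of 2.41.

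Other genes of the homeostatic set did not move together. Of 15 such genes tested, 7 rose and 1 fell, and the median log2 fold change was 0.56. Fcrls, a microglial surface protein, rose by 2.88 on the log2 scale, above every general myeloid gene. Mef2c, a transcription factor that retinal neurons also use, fell by 1.30. Genes of activated, phagocytic microglia rose in 12 of 18 cases with a median of 1.01, the same value as for the members, but with a far wider range. Cd9 rose by 1.18, Trem2, the lipid receptor that signals through DAP12, by 2.58, and Cst7, a cysteine protease inhibitor that marks activated microglia, by 6.30. Some genes of this list were counted mostly outside the microglia-like cells described below. In the KO P19 library these cells held 470 of 9913 molecules of Cd9 and 3764 of 68985 of Apoe, but 409 of 413 of Trem2. The bulk median of this list therefore does not stand for microglia alone.

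The ligands and regulators of these receptors moved unevenly in retina, with 6 of 14 rising and 1 falling around a median of 0.59. Besides Tyrobp, the smallest p belonged to Nt5e, the ectoenzyme that makes adenosine, which fell by 1.06, and Itgb8, an integrin that activates TGF-beta, which rose by 1.25. None of 4 tested border macrophage genes and none of 2 tested blood leukocyte genes was called in retina, with edgeR adjusted p from 0.09 upward for the first list and from 0.349 for the second. At an unadjusted p under 0.05, 1 of these 6 genes would have passed, and neither list was counted with another tool. Rod genes fell in 6 of 8 cases with a median of -0.83, and summed general myeloid genes stood at 20.1 to 21.0 CPM in WT and 70.5 to 83.0 CPM in KO retina. Summed border macrophage genes ran from 14.4 to 16.3 CPM in WT retina and from 14.9 to 86.6 CPM in KO retina, the highest being KO library 2, and all 7 members were called without that library. The part of a changed cell mixture in the members' rise was not tested.

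**Figure D2:**
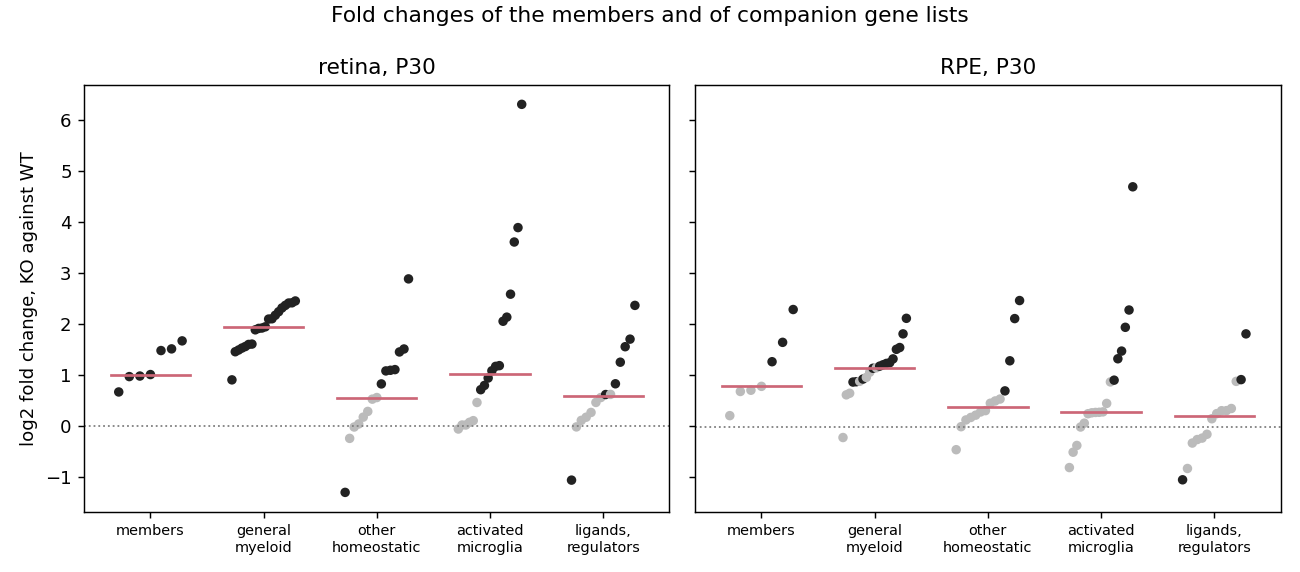
Log2 fold change of KO against WT for each tested gene of 5 lists, in retina and in RPE. Black points passed the call, grey points did not, red bars are list medians and the dotted line is the median of all genes. In retina the members' median of 1.01 lies below the general myeloid median of 1.93, and in RPE 0.78 lies beside 1.14.

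To ask whether the members kept pace with these genes, the test was repeated with offsets. These hold the mean log2 level of the 20 general myeloid genes equal between libraries. On this scale 0 means a change equal to that of the reference genes, and an unchanged gene lies near the median of all genes, which was -1.83 in retina. Because nearly every gene of the retina lies below the reference, 97.0% of all genes were called lower on this scale and 0.815% higher, so the count of members called lower, 6 of 7, says little, adjusted p-values are close to unadjusted ones, and the position between the 2 ends is what can be read. The fit also takes the reference level as known without error. It cannot tell a lag of the members from a rise of the reference genes within each myeloid cell.

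In retina every member lay between the 2 ends. Cx3cr1 came nearest to the reference at -0.17 with an SE of 0.11 and was not called (edgeR adjusted p = 0.125). Csf1r followed at -0.33 with an SE of 0.08 (edgeR adjusted p = 6.28e-04), and Tmem119 at -0.35 with an SE of 0.16 (edgeR adjusted p = 0.0382), a call lost without WT retina library 3 (-0.22, adjusted p = 0.20) and in 4 more alternatives. Siglech at -0.82, P2ry12 at -0.85 and Sall1 at -0.86 reached 0.567, 0.554 and 0.552 of the reference genes' rise, with SEs of 0.16, 0.14 and 0.18 on the log2 scale. Of the Sall1 molecules counted in single cells, 52.7% lay in the microglia-like cells described below, so its bulk value does not stand for microglia alone. Gpr34 lay farthest below at -1.16 with an SE of 0.25, or 0.448 of the reference (edgeR adjusted p = 2.08e-04). With the 3 genes of complement C1q as reference, which rose more, Cx3cr1 was also called lower, at -0.94 (adjusted p = 2.40e-07).

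**Figure D3:**
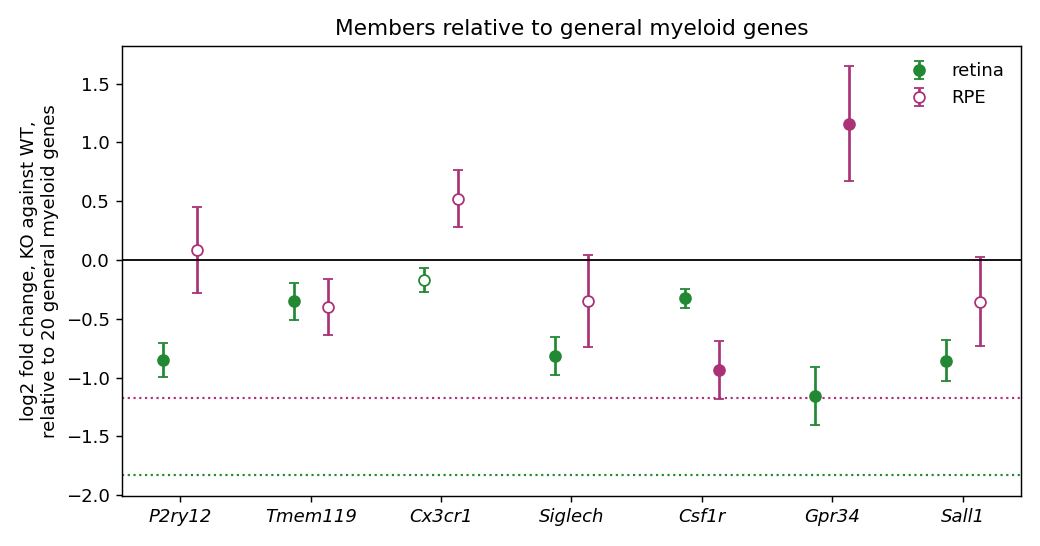
Log2 fold change of KO against WT relative to 20 general myeloid genes, with SE bars, for n = 4 libraries per group. Filled points have an adjusted p below 0.05, the black line is equal pace with the reference, and dotted lines are the medians of all genes (-1.83 in retina, -1.17 in RPE). Retina points lie at or below the reference, and RPE points spread from -0.94 for Csf1r to 1.16 for Gpr34.

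In RPE 3 of 7 members rose, against 2.02% of the 18989 genes tested, and the same 3 had every KO library above every WT library, as had 7.40% of all genes. The members' median log2 fold change was 0.78 beside a median of -0.0185 over all genes. Cx3cr1 was the firmest. It held 3.10, 3.90, 2.34 and 4.08 CPM in WT RPE and 8.71, 11.3, 11.1 and 10.6 CPM in KO RPE, and its log2 fold change of 1.64 with an SE of 0.19 (edgeR adjusted p = 0.00261) nearly equalled that in retina.

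P2ry12 held 0.490, 0.963, 0.722 and 1.10 CPM in WT RPE and 1.37, 2.39, 1.74 and 2.28 CPM in KO RPE, with a log2 fold change of 1.26 and an SE of 0.30 (edgeR adjusted p = 0.044). Gpr34 rose from 0.0816, 0.247, 0.0578 and 0.262 CPM to 0.542, 0.666, 0.643 and 1.24 CPM, a log2 fold change of 2.28 with an SE of 0.50 (edgeR adjusted p = 0.0343). Its lowest library held 2 reads, so this fold rests on few counts. These calls were fragile: Gpr34 lost its call when any library other than WT RPE library 2 was left out, and P2ry12 when any other than WT RPE library 1 was, with adjusted p up to 0.098 and 0.131, so that Cx3cr1 alone was called in 6 of those 8 fits. Without WT RPE libraries 2 and 3, those highest in rod genes, Cx3cr1 was again the only member called.

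The remaining members did not pass in RPE. Tmem119 held 10.3, 6.02, 5.26 and 4.97 CPM in WT RPE and 10.8, 10.1, 10.6 and 11.0 CPM in KO RPE. The KO libraries were nearly identical and WT library 1 lay among them, the library in which border macrophage genes summed to 752.6 CPM; the part of those cells was not tested. With all libraries the log2 fold change was 0.68 (edgeR adjusted p = 0.143), and without WT RPE library 1 it was 0.97 (adjusted p = 0.00438). DESeq2 also called it (adjusted p = 0.0317). Siglech held 0.462, 0.864, 0.462 and 1.26 CPM in WT and 0.795, 1.49, 1.51 and 1.32 CPM in KO RPE, with overlapping groups and a log2 fold change of 0.78 (edgeR adjusted p = 0.298). Sall1 held 1.69, 1.14, 0.809 and 3.51 CPM in WT and 1.99, 3.25, 3.33 and 2.84 CPM in KO RPE, where WT library 4 was the highest of all 8, and its log2 fold change was 0.70 (edgeR adjusted p = 0.415).

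Csf1r behaved unlike the other members in RPE. Its level was 562, 331, 512 and 534 CPM in WT and 556, 543, 568 and 568 CPM in KO RPE, so that WT library 2, in which 8 RPE genes together were also lowest at 31780 CPM, stood below the rest and the groups overlapped. The log2 fold change was 0.20 with an SE of 0.16 (edgeR adjusted p = 0.499). Per kilobase, Csf1r reached 84.0 ± 18.1 in WT RPE (SD, n = 4), beside 2.87 ± 1.07 for Tmem119 and at most 0.745 ± 0.178 for every other member. Hmgxb3, whose exons share bases with it, held 52.1 ± 3.2 CPM in WT RPE and 50 ± 1.3 CPM in WT retina, much the same in each tissue. The large amount of Csf1r RNA in RPE libraries was thus not matched by the other members.

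The tissues were compared by a genotype by tissue interaction fitted to the 16 bulk libraries together. Of the 7 members, Csf1r alone differed, with a KO effect 1.29 lower on the log2 scale in RPE than in retina (SE 0.18, edgeR adjusted p = 3.62e-04); 5.73% of the 21068 genes tested were called in this direction and 3.11% in the other. Gpr34 had a larger effect in RPE by 1.65 with an SE of 0.53 (edgeR adjusted p = 0.0715), which passed with DESeq2 (adjusted p = 0.0289) and without WT RPE library 2 (adjusted p = 0.0364). For Tmem119 the difference was -0.78 (edgeR adjusted p = 0.122), and for Cx3cr1 it was -0.002 with an SE of 0.21.

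The general myeloid, other homeostatic, activated and ligand lists had lower median log2 fold changes in RPE than in retina. These differences between tissues were not tested, and the RPE libraries, to which the following values belong, were less even. Of the 20 general myeloid genes 13 rose, with a median of 1.14, led by Ly86, a partner of an innate immune receptor, at 2.11, Vav1, a signalling protein of blood cells, at 1.5 and Cd53, a leukocyte tetraspanin, at 1.54. Of 14 other homeostatic genes 4 rose, led by Selplg at 1.28, P2ry13, a paralogue and neighbour of P2ry12, at 2.46 and Fcrls at 2.1. Activated microglia genes rose in 6 of 18 cases, led by Trem2 at 2.27, Cst7 at 4.68 and Cd68, a lysosomal glycoprotein of phagocytes, at 1.32. Among ligands and regulators Tyrobp rose by 1.80 and Csf1, the ligand of Csf1r, by 0.91, while Nt5e fell by 1.05. None of 9 border macrophage genes was called, with edgeR adjusted p from 0.0716 upward, although 1 of them had an unadjusted p under 0.05 and no other tool was applied to the list; of 7 blood leukocyte genes 2 neutrophil genes fell, S100a8 by 2.64 and S100a9 by 2.37.

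Relative to the general myeloid genes, the members in RPE lay on both sides of the reference, with a median over all genes of -1.17. On this scale 87.1% of all genes were called lower and 0.474% higher. Gpr34 was the only member called higher, at 1.16 with an SE of 0.49 (edgeR adjusted p = 0.0422), and it kept this call only without WT RPE library 2, without WT RPE library 4 and with the replicate block. Cx3cr1 at 0.52 (edgeR adjusted p = 0.0631) and P2ry12 at 0.08 (edgeR adjusted p = 0.831) were not called, although without WT RPE libraries 2 and 3 Cx3cr1 was called higher, at 0.70 (adjusted p = 0.0307). Tmem119 at -0.40, Siglech at -0.35 and Sall1 at -0.35 were not called either, with SEs of 0.24, 0.39 and 0.38. In WT libraries Tmem119 had a mean of 6.64 CPM in RPE and 2.01 CPM in retina, and Csf1r and Sall1 were also higher in RPE. The means of P2ry12, Cx3cr1, Siglech and Gpr34 were lower in RPE than in retina. Whether the Tmem119 value in RPE stands for microglia alone was not tested. Csf1r at -0.94 with an SE of 0.25 was called lower (edgeR adjusted p = 0.00433). Csf1r was also counted in the RPE-like single cells described below, so this value does not stand for microglia alone. With C1q as the reference, P2ry12 changed sign and was called lower at -0.83 (adjusted p = 0.0397).

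The single-cell libraries show in which cells the members were counted. The matrix holds 26764 cells with 2558 to 5633 per library, and of 26715 barcodes 49 occurred in 2 libraries. A cell was taken as microglia-like when it had at least 1 unique molecular identifier (UMI) from at least 4 of 10 marker genes, none of them a member, and 132 cells met this rule, with a median of 4306 UMIs. Genes with the largest excess in these cells over the rest included Fcrls and Trem2, which fit the name, but also Mrc1, a border macrophage gene. C1qc and Ctss ranked there too, but they are among the 10 markers, so their excess was set by the rule. No doublet caller was run, and intervals given here are at 95% and cover counting error only.

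These few cells held 97.3% of all Cx3cr1 UMIs, 97.5% of Siglech, 96.8% of Csf1r, 96.3% of Gpr34, 94.7% of Tmem119 and 87.8% of P2ry12. Sall1 was the exception at 52.7%. In microglia-like cells Cx3cr1 reached 16.8 UMIs per 10000 UMIs (interval 15.9 to 17.8), Csf1r 13.7, P2ry12 6.72, Gpr34 5.83, Tmem119 3.46, Siglech 3.40 and Sall1 1.03 (interval 0.798 to 1.30). At least 1 Csf1r UMI was found in 77.3% of them and at least 1 Sall1 UMI in 25.8%.

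Of the Sall1 UMIs, 37.4% lay in Müller glia-like cells, the radial glia of the retina, at 0.0390 per 10000 (interval 0.0289 to 0.0516) in 2284 cells with a median of 4642 UMIs. In all cells of no named class, 24030 cells with a median of 2444 UMIs, the rate was 0.000804. P2ry12 showed a weaker form of this, with 7.77% of its UMIs in Müller glia-like cells at 0.0318 per 10000, beside 0.00241 in cells of no named class. Csf1r had 11 UMIs in 56 RPE-like cells, 0.705 per 10000 (interval 0.352 to 1.26), whereas its rate in cells of no named class was 0.00195. No other member had a UMI in RPE-like cells, which allows up to 3 UMIs of the 156119 counted there.

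Microglia-like cells were more frequent in KO than in WT libraries at each age. Per 1000 cells there were 3.13 in WT and 5.85 in KO at P19, 1.60 and 6.75 at P25, and 2.35 and 9.52 at P30, from 17 and 31, 7 and 38, and 6 and 33 cells. The KO to WT ratio was 1.87 (interval 1.00 to 3.61) at P19, 4.21 (1.86 to 11.2) at P25 and 4.06 (1.68 to 11.9) at P30. With 1 library per genotype and age there is no replicate check of these ratios, and no test was made.

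Counted over whole libraries, the members were higher in KO at each age. Per 1000000 UMIs of the library the 7 members together held 20.5 in WT and 58.5 in KO at P19, 12.2 and 59.9 at P25, and 9.09 and 26.7 at P30. These are ratios of 2.86 (interval 2.58 to 3.17), 4.89 (4.29 to 5.61) and 2.94 (2.12 to 4.16). Single members did not all follow the sum at P30. Cx3cr1, which rose the most in bulk retina of that age, had 12 UMIs in WT and 11 in KO. Its ratio was 0.764 (interval 0.305 to 1.89), and Sall1 had no UMI at P30. The general myeloid genes together had ratios of 4.13, 6.57 and 5.92 in the same libraries, and the 3 C1q genes 4.77, 9.77 and 8.21. Most of the general myeloid UMIs came from the 5 genes that are also markers of the gate, and against the 15 others the members had ratios at P19 and P25 of 1.03 (interval 0.879 to 1.21) and 1.02 (0.844 to 1.23), while the P30 ratio was 0.684 (0.411 to 1.13).

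Within microglia-like cells the 7 members together made up 95.9 UMIs per 10000 in WT and 63.7 in KO at P19, and 61.7 and 44.9 at P25. The ratios of KO to WT were 0.664 (interval 0.597 to 0.739) and 0.728 (0.634 to 0.838). Cell by cell the values were wide, from 11.3 to 133 with a median of 92.8 in the 17 WT cells at P19 and from 0 to 179 with a median of 68.0 in the 31 KO cells. At P25 the medians were 68.0 in 7 WT cells and 39.2 in 38 KO cells. The cells themselves differed in depth, with a median of 2099 UMIs in WT and 6395 in KO cells at P19, 6717 and 6998 at P25, and 2350 and 1400 at P30. Counted per cell without regard to depth, members had on average 27.9 UMIs in WT and 42.4 in KO at P19, 35.3 and 31.8 at P25, and 5.17 and 4.61 at P30, so the direction at P19 depended on scaling to the cells' UMIs.

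At P30 the direction was the other way, 9.53 per 10000 in WT and 20.3 in KO, a ratio of 2.13 (interval 1.44 to 3.24), on 31 and 152 member UMIs. In WT P30, 2 of the 6 cells were among the 5% of cells with the most UMIs of that library and held 77.2% of the UMIs of these cells. Without the cells of highest UMI count, the P30 values were 41.8 in 4 WT cells and 26.1 in 29 KO cells, a ratio of 0.624. These 6 WT cells do not allow a statement on the P30 level per cell.

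The members were therefore also set against other myeloid genes of the same cells. Per 100 UMIs of the 20 general myeloid genes, microglia-like cells held 60.7 member UMIs in WT and 38.0 in KO at P19, 45.6 and 29.3 at P25, and 52.5 and 24.4 at P30. The KO to WT ratios were 0.626 (interval 0.548 to 0.715), 0.644 (0.545 to 0.762) and 0.465 (0.285 to 0.772), lower in KO in each of 3 pairs of libraries. Of the 20 reference genes 5 are also markers of the gate. With the 15 others the ratios were 0.762, 0.735 and 0.412. The last of these (interval 0.19 to 0.86) rests on 31 member and 12 reference UMIs in 6 WT cells. Without the cells of highest UMI count the P25 ratio to these 15 was 0.806 (interval 0.644 to 1.01). The same comparison over whole libraries, given before, did not show a lower level in KO at P19 and P25. At P19, 217 of the 369 WT UMIs and 787 of the 935 KO UMIs of these 15 genes lay in microglia-like cells. At P25 it was 166 of 283 in WT and 1105 of 1341 in KO.

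By gene, the ratio to general myeloid UMIs was below 1 for each member with UMIs at each age, though many intervals reached 1. P2ry12 had 12.4 UMIs per 100 reference UMIs in WT and 5.30 in KO at P19, and 5.54 and 2.48 at P25, ratios of 0.427 (interval 0.328 to 0.559) and 0.447 (0.292 to 0.704). Gpr34 had ratios of 0.533 (0.394 to 0.726) and 0.570 (0.359 to 0.938) at these ages, Siglech 0.502 and 0.705, and Tmem119 0.413 (0.265 to 0.652) and 0.637 (0.382 to 1.12). Csf1r came nearest to 1, with 0.789 (0.617 to 1.02) and 0.849 (0.635 to 1.15). Cx3cr1 had 0.778 (0.631 to 0.964) and 0.612 (0.479 to 0.789), but 0.948 (0.738 to 1.22) at P19 against the 15 genes outside the gate. At P30 Cx3cr1 had 4 UMIs in WT and 10 in KO microglia-like cells, a ratio of 0.237 (0.066 to 1.07). Sall1 had 9 and 31 UMIs at P19 and 8 and 21 at P25, too few to place it, and 0 UMIs in either P30 library.

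**Figure D4:**
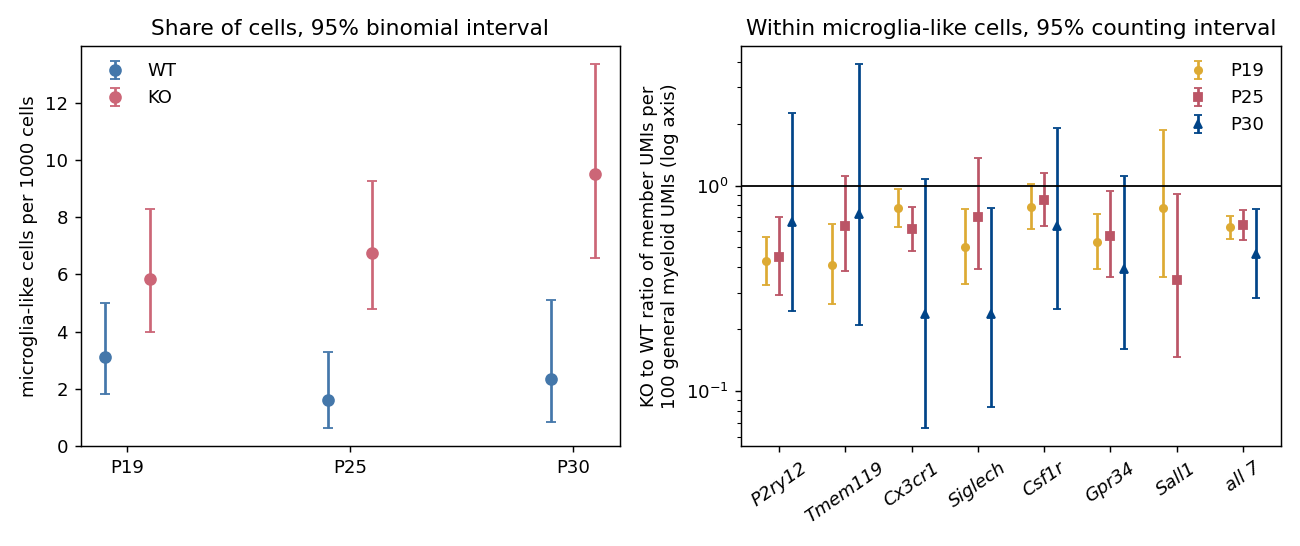
Left, microglia-like cells per 1000 cells in each single-cell library, with exact binomial intervals. Right, the KO to WT ratio of member UMIs per 100 general myeloid UMIs within microglia-like cells at 3 ages, on a log axis with exact counting intervals; the black line is no difference. KO shares lie above WT shares at each age, and the ratio for all 7 genes lies below 1 at each age (0.626, 0.644 and 0.465).

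Some microglia-like cells carried genes of border macrophages. A UMI of Mrc1 or Pf4 was found in 0 of 17 WT and 2 of 31 KO cells at P19, in 2 of 7 and 9 of 38 at P25, and in 0 of 6 and 1 of 33 at P30. At P25 the KO cells with such a UMI held 29.0 member UMIs per 10000 and those without 51.7. With all of them left out the ratios to general myeloid UMIs were 0.632, 0.754 and 0.474, each still below 1. Against the 15 genes outside the gate the P25 ratio without them was 0.867 (interval 0.666 to 1.13). Single genes moved more at P25. Without these cells Cx3cr1 went from 0.612 to 0.935 (interval 0.672 to 1.33) and Siglech from 0.705 to 1.16 (0.551 to 2.80), on 8 WT UMIs, whereas P2ry12 at 0.476 (0.296 to 0.792) and Gpr34 at 0.508 (0.317 to 0.843) stayed lower. Activated genes counted in the microglia-like cells had summed KO to WT ratios per 10000 UMIs of 1.62, 1.74 and 7.33 at P19, P25 and P30. The general myeloid genes had 1.06, 1.13 and 4.57 on the same scale. The P30 ratios rest on 6 WT cells, which do not allow a statement on the level per cell. Apoe, which carries lipids, gave 10380 of the 18799 activated gene UMIs in KO at P25. Cst7 had 0 UMIs in each WT library and 51, 86 and 26 in the microglia-like cells of the KO libraries. Others were lower in KO at P25, as Lpl, a lipoprotein lipase, at 0.283 (interval 0.125 to 0.680) on 10 WT UMIs. The chemokine gene Ccl3 stood at 0.637 (0.512 to 0.800) at that age. At P19 Lpl had a ratio of 8.16 (1.37 to 332) on 1 WT UMI, and Ccl3 one of 1.15 (0.909 to 1.46). At P30 Lpl had 2 UMIs in each genotype, and Ccl3 a ratio of 3.04 (1.79 to 5.5).

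Over the 16 bulk libraries the genes whose log2 CPM followed the mean standardised level of the 7 members most closely were Ly86 (Pearson r = 0.980), Rfx2 (0.965), Ctss (0.963), Socs3 (0.95) and Nckap1l (0.946). Of the members themselves Cx3cr1 followed that mean at 0.975 and Csf1r at 0.156. The points share 2 tissues and 2 genotypes, so these values are a description.

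By GENCODE M21 (GRCm38, mm10) the members are spread over the genome, P2ry12 at chr3:59216272-59262871 inside the oppositely transcribed Med12l, Gpr34 at chrX:13632089-13640858 inside the oppositely transcribed Cask, Csf1r at chr18:61100598-61132149, Tmem119 at chr5:113793729-113800516, Siglech at chr7:55768178-55778925, Cx3cr1 at chr9:119901616-120069879 and Sall1 at chr8:89027235-89044162. Apart from Csf1r, shared exon bases were few, 9 for P2ry12 and 78 for Cx3cr1. RefSeq promoters (GRCm38.p6, 250 bases before to 50 after the start) were given for 4 members, P2ry12, Siglech, Cx3cr1 and Sall1. None of the 6 promoter windows of these genes held GAGGAAGT, a form of the site of the myeloid factor PU.1, CCGGAAGT of the wider ETS family, the AP-1 sites TGACTCA or TGAGTCA, or the SMAD site GTCTAGAC, on either strand, which 3.2%, 3.89%, 5.20% and 0.213% of all promoters held.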

How the data were processed

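Bulk RNA-seq of retina and RPE and single-cell RNA-seq of retina were analysed as deposited. The deposited bulk tables hold raw read counts per gene and library, not normalized by the authors. The deposited single-cell matrix holds natural log values, in which the authors' scaling to 10000 per cell and natural log had been applied 2 times. Both steps were inverted, after which 100.00000% of values were whole UMIs within 0.01. The submitters' processing notes name mm10, Cell Ranger 2.1, Seurat 3.2.2, bcl2fastq, FastQC, edgeR 3.20.9 and HOMER. For the bulk counts, the aligner, the counting program and the use of strand were not given in the sources used.

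Of 53801 Ensembl identifiers, 53620 had a symbol. Bulk counts were tested with edgeR 4.0.16 in R 4.3.3 (quasi-likelihood, TMM scaling, filterByExpr, Benjamini-Hochberg adjustment over all genes tested), per tissue and with a genotype by tissue interaction. A call needed an adjusted p below 0.05, and between genotypes at least 1.5-fold. The fits were tested on simulated data first. DESeq2 1.42.0, no filter, all libraries in a single fit, other references, a replicate block and leaving out each library were alternatives. Alternatives chosen after seeing the data left out WT RPE libraries 2 and 3, used only reference genes outside the gate, or left out cells with Mrc1 or Pf4. Deviations of same-numbered WT and KO libraries from their group means correlated at 0.157 to 0.218 in retina and 0.287 to 0.655 in RPE. WT retina library 3 and WT RPE libraries 1, 2 and 4 correlated best with a KO library of another number. In RPE the numbers therefore did not follow the closest pairs. Replicates differed beyond sampling noise (chi-square per degree of freedom at least 4.05).

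Cells were gated by markers and not clustered, with no test, since each genotype and age had 1 library. No doublet caller was run, and leaving out the 5% of cells with most UMIs was an alternative. Intervals are exact at 95%. The members and lists were chosen with earlier results of these data known. Named genes are the members, genes among the 3 of smallest p in each list the text describes, the 5 genes most correlated with the members, Aif1 and Adipor1. Not every gene under this rule is printed, and some results are not reported here. Hmgxb3, Mrc1, Pf4 and the gate genes were chosen after their values were seen, as were Apoe, Cst7, Lpl, Ccl3, Aif1 and Ly86 in single cells.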

Additional observations from a re-analysis of the deposited data

Results flagged for a closer look

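Among 28 groups of 4 libraries, 2 held a library that stood apart from its group, and chance alone marks about 1 in 20 such groups. Cx3cr1 stood at 16.6 CPM in KO retina library 3, where the other KO libraries held 13.2 to 13.3 CPM. Siglech stood at 1.97 CPM in WT retina library 1, where the other WT libraries held 1.69 to 1.73 CPM. Both genes kept their call in retina when these libraries were left out.

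The KO effect on Csf1r differed between tissues, by -1.29 on the log2 scale in RPE relative to retina (edgeR adjusted p = 3.62e-04). Csf1r rose in 4 of 4 KO retina libraries above the WT range, while its groups overlapped in RPE.

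The member UMIs per 10000 UMIs of microglia-like cells had a KO to WT ratio of 2.13 at P30 and below 1 at P19 and P25. This difference between ages was not tested, and the P30 value rests on 6 WT cells.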

How the results depend on the processing

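In retina the number of members called was 7, and 5 to 7 under every alternative. In RPE 3 members were called, 4 with DESeq2, 4 with all 16 libraries in a single fit, 2 with no filter on low counts, 1 to 3 when single libraries were left out and 1 without WT RPE libraries 2 and 3. For the tissue difference 1 member was called, 2 with DESeq2 and 1 to 2 when single libraries were left out, the second being Gpr34 without WT RPE library 2. Relative to the general myeloid genes, 2 members were called in RPE, but 1 with summed counts as reference, 5 with C1q, 1 with Aif1, 1 with no filter on low counts and 1 to 2 when single libraries were left out. P2ry12 then changed sign with C1q as reference, from 0.08 to -0.83. The replicate block pairs WT and KO libraries by their number. With it the counts were 7 in retina, 3 in RPE and 1 for the tissue difference. Relative to the general myeloid genes they were 6 in retina and 2 in RPE, and the block changed no call of a member. The KO to WT ratio of member UMIs per 10000 in microglia-like cells was 0.75 at P19 with at least 3 markers, and 0.841 at P25 and 0.624 at P30 without the cells of most UMIs, where P30 turned from 2.13. Per 100 general myeloid UMIs it was 0.762 at P19 with genes outside the gate only. The causes of these changes were not tested. Gpr34 in RPE rests on 2 to 31 reads per library, and the number of WT microglia-like cells, 17, 7 and 6, limits every single-cell ratio.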
